A study of Homo sapiens with 6 samples.

Results

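The genes of leukotriene and prostanoid synthesis and reception were followed by RNA-seq through the conversion of human B cells into macrophages, with and without CTCF, the zinc finger protein that stalls cohesin and demarcates chromatin domains. The members were chosen by symbol: *ALOX5*, *ALOX5AP*, *LTA4H*, *LTC4S*, *PTGS1*, *PTGS2*, *TBXAS1*, *PTGER2*, *PTGER4* and *PLA2G4A*. All 10 of them were listed among the 30017 genes of the count table. The cells were BLaER cells, a B cell leukemia line converted to induced macrophages (iMacs) by a C/EBPα transgene, here as 1 subclone (CTCF-AID) with a degron on CTCF that auxin triggers. All 6 libraries, the controls included, came from this subclone. They formed 3 groups of 2 replicates: untreated cells before induction (0 h), cells at 96 h of conversion without auxin (96 h control) and cells at 96 h of conversion with auxin (96 h CTCF-depleted). The 96 h groups also differed from 0 h by the estradiol, IL-3 and CSF-1 used for induction. Auxin-treated cells without the degron were not analysed here, so effects of auxin and of CTCF loss cannot be told apart.

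Libraries held 9273470 to 12718780 counts. Of 12 macrophage markers, all 12 were higher at 96 h than at 0 h in control cells and all 12 in CTCF-depleted cells, and their summed level rose from 40.3 to 42.2 CPM (counts scaled to a common library size by TMM) at 0 h to between 6399 and 6630 CPM in control and between 5648 and 5734 CPM in CTCF-depleted libraries. All 12 B cell markers were lower in both, but their summed level remained at 433 to 457 CPM at 96 h, from 3540 to 3584 CPM at 0 h. In RNA from whole cultures, fewer cells of a type and less RNA per cell cannot be told apart. A call of higher or lower required an adjusted p below 0.01 together with a log2 fold change beyond 0.6 in either direction, in edgeR's quasi-likelihood test over 14758 tested genes. Of the members, 9 could be tested and *PTGS2* had no counts.

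Leukotrienes and prostanoids are short-lived lipid signals made from arachidonic acid, which phospholipase A2 cuts from membranes. 5-lipoxygenase, helped by its activating protein FLAP, turns arachidonic acid into leukotriene A4, from which LTA4 hydrolase makes the neutrophil attractant leukotriene B4 and LTC4 synthase makes the cysteinyl leukotrienes. Cyclooxygenases instead make prostaglandin H2, which terminal synthases turn into thromboxane A2, prostacyclin or prostaglandin E2, each with its own receptors. Monocytes and macrophages are a well-known source of both classes.

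During conversion with CTCF, 7 of the 9 tested members rose, 1 fell (*PTGER2*) and 1 was not called (*PLA2G4A*, past the fold change threshold but not that of the adjusted p). Among all tested genes, 25.4% rose and 22.9% fell in the same comparison. The median log2 fold change was 2.45 for the tested members and 0.02 over all tested genes. By adjusted p alone, 8 of 9 changed, against a background of 68.2%, and for 8 of 9 the groups did not overlap, against 86.7%. *LTC4S* and *PLA2G4A* did not reach the count filter in the 0 h libraries and were tested only because of their level at 96 h. The 7 and both counts of 8 include *LTC4S*, and the median includes both genes. None of these values can therefore be read against its background. After CTCF depletion, 3 members lay past both thresholds above control cells at 96 h and 0 below, beside a background of 5.41% higher and 7.03% lower. Among these 3, the rise of *TBXAS1* was known when the list was drawn and *PLA2G4A* passed the count filter only through the CTCF-depleted libraries, so both are described without a test and the count is not set against the background. *PTGS1* was the remaining member called higher. Without the fold change threshold, *ALOX5AP*, *PTGS1*, *PTGER2* and *PTGER4* were higher and *ALOX5* and *LTA4H* lower, each with an adjusted p below 0.01 in edgeR. *LTC4S* did not reach this adjusted p, which 29.4% of all tested genes did. The groups did not overlap for these genes except *LTC4S*, nor for 67.9% of all tested genes. The median log2 fold change of all 9 members was 0.31. It includes *TBXAS1* and *PLA2G4A*, so it is not set against the -0.03 of all tested genes. Against 0 h, 8 members were called higher in CTCF-depleted cells and 0 lower, with a background of 27.2% and 25.2%; *PTGER2*, with an adjusted p of 4.93e-06 in edgeR, was lower by less than the fold change threshold. The 8 included *LTC4S*, which did not reach the count filter at 0 h, and *PLA2G4A*, which passed it only through the CTCF-depleted libraries. The 8 can therefore not be read against that background. They became 6 with DESeq2, where neither of these genes was called. *LTC4S* also lost this call without the second 0 h library and without the second CTCF-depleted library. By adjusted p alone all 9 changed (background 71%), and in all 9 the groups did not overlap (background 87.8%). Both counts again include *LTC4S* and *PLA2G4A* and have the same limit.

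*ALOX5* (chromosome 10, 45374176 to 45446119, plus strand, hg38), which encodes 5-lipoxygenase, had 24 and 31 counts at 0 h, 1388 and 1327 with CTCF at 96 h and 1055 and 992 after its depletion. Both 96 h groups lay far above 0 h, and both CTCF-depleted libraries lay below both control libraries. The level rose from 2.40 ± 0.11 to 123 ± 0.28 CPM in control cells (SD, n = 2 each), which is 51.1-fold (log2 fold change 5.68, SE 0.12, adjusted p = 2.79e-44 from edgeR). In CTCF-depleted cells it stood at 94.5 ± 4.46 CPM, a log2 fold change of -0.38 relative to control (SE 0.07, adjusted p = 8.00e-06 from edgeR), short of the fold change threshold.

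*ALOX5AP* (chromosome 13, 30713478 to 30764426, plus strand) encodes FLAP, the membrane protein that presents arachidonic acid to 5-lipoxygenase. It had 33 and 37 counts at 0 h, 4710 and 4367 in control and 5694 and 5350 in CTCF-depleted libraries. It showed the largest increase of the members, from 3.09 ± 0.45 to 410.1 ± 7.97 CPM (SD, n = 2 each), or 134-fold (log2 fold change 7.07, SE 0.09, adjusted p = 4.57e-55 from edgeR). After CTCF depletion it was higher rather than lower, at 510.03 ± 24.3 CPM, with a log2 fold change of 0.31 (SE 0.05, adjusted p = 7.12e-08 from edgeR), again below the fold change threshold. The counts of *ALOX5AP* per count of *ALOX5*, which do not depend on library scaling, went from 3.39 and 3.29 in the control libraries to 5.40 and 5.39 in the CTCF-depleted libraries. Both CTCF-depleted libraries thus had the higher ratio.

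*LTA4H* (chromosome 12, 96000753 to 96043520, minus strand), the hydrolase that makes leukotriene B4, was already abundant in B cells, with 889 and 1139 counts at 0 h. In control libraries it had 5317 and 5352, and in CTCF-depleted libraries 4111 and 3829. Its level went from 88.6 ± 4.44 to 482 ± 18.6 CPM in control cells (log2 fold change 2.45, SE 0.05, adjusted p = 1.89e-43 from edgeR) and was 367 ± 19.7 CPM in CTCF-depleted cells (log2 fold change -0.40 relative to control, SE 0.05, adjusted p = 3.70e-10 from edgeR; SD, n = 2 each). The difference did not reach the fold change threshold, and both CTCF-depleted libraries were below both controls. The ratio of *LTA4H* to *ALOX5* counts was 3.83 and 4.03 in control and 3.90 and 3.86 in CTCF-depleted libraries, so that the ranges overlapped. Exons of *LTA4H* share 10.9% and 1.63% of their bases with 2 lncRNAs on the other strand, and the strand setting of the counting is not given in the sources used here.

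*LTC4S* (chromosome 5, 179793980 to 179796647, plus strand), the synthase of leukotriene C4, remained rare, with 11 and 10 counts at 0 h, 25 and 33 in control and 26 and 32 in CTCF-depleted libraries. The 0 h libraries were lowest and the 96 h groups overlapped. It rose in control cells from 0.94 ± 0.27 to 2.63 ± 0.60 CPM (SD, n = 2 each; log2 fold change 1.51, SE 0.40, adjusted p = 6.99e-04 from edgeR). This call was lost with DESeq2 (adjusted p = 0.0221), without the second 0 h library (adjusted p = 0.0366 from edgeR) and without the second control library (adjusted p = 0.0293 from edgeR). Between CTCF-depleted and control cells the log2 fold change was 0.03 with an approximate 95% interval (1.96 SE) from -0.61 to 0.67 (adjusted p = 0.961 from edgeR), so a difference of up to the threshold was not detectable at this depth.

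Of the cyclooxygenases, only *PTGS1* was detected. *PTGS2* (chromosome 1, 186671791 to 186680922, minus strand), the inducible COX-2, had 0 counts in each of the 6 libraries, which allows up to 3 counts, or 0.225 to 0.309 CPM, per library (counting error only). *PTGS1* (chromosome 9, 122370530 to 122395703, plus strand), the constitutive COX-1, had 25 and 38 counts at 0 h, 336 and 290 in control and 497 and 470 in CTCF-depleted libraries. All CTCF-depleted values lay above all control values, and these above 0 h. Its level was 2.71 ± 0.19, 28.3 ± 1.98 and 44.7 ± 1.93 CPM, respectively (SD, n = 2 each). The increase was 10.3-fold with CTCF (log2 fold change 3.36, SE 0.15, adjusted p = 1.16e-27 from edgeR). CTCF-depleted cells exceeded control cells by a log2 fold change of 0.66 (SE 0.09, adjusted p = 4.55e-08 from edgeR), which was between 0.62 and 0.77 over the alternative analyses.

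*TBXAS1* (chromosome 7, 139777051 to 140020325, plus strand) encodes thromboxane A synthase, the enzyme that acts on the product of the cyclooxygenases. It had 19 and 31 counts at 0 h, 336 and 317 in control and 520 and 516 in CTCF-depleted libraries. The groups followed the same order as for *PTGS1*, without overlap. Its level was 2.14 ± 0.26 CPM at 0 h and 29.5 ± 0.21 CPM with CTCF at 96 h (SD, n = 2 each; log2 fold change 3.76, SE 0.16, adjusted p = 1.59e-29 from edgeR). Without CTCF it was 47.8 ± 0.43 CPM, 1.62-fold the control level (log2 fold change 0.70, SE 0.09). The ratio of *PTGS1* to *TBXAS1* counts was 1.00 and 0.915 in control libraries and 0.956 and 0.911 in CTCF-depleted libraries. The 2 genes, on different chromosomes, thus held nearly equal counts in each library at 96 h. Per kilobase of annotated exon (GENCODE release 44), their levels were 4.89 and 4.78 CPM per kb in control and 7.72 and 7.75 CPM per kb in CTCF-depleted cells, and did not differ beyond their spread in either group.

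**Figure D1:**
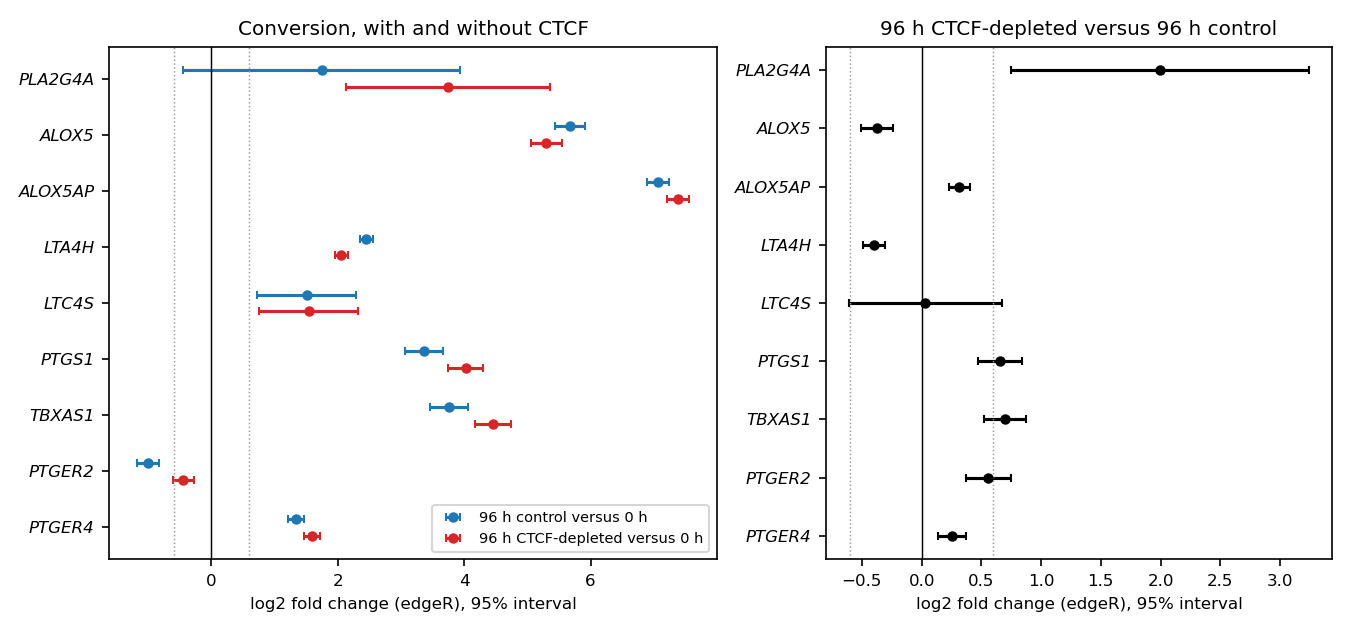
Log2 fold changes from edgeR of the 9 tested genes, with whiskers of 1.96 SE and dotted lines at the fold change threshold of 0.6 in either direction; left, each 96 h group relative to 0 h (the 2 comparisons share the 0 h libraries); right, CTCF-depleted relative to control cells at 96 h. On the right, *PTGS1*, *TBXAS1* and *PLA2G4A* lie above 0.6, *ALOX5* and *LTA4H* lie between -0.6 and 0, and the interval of *LTC4S* spans 0.

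Promoters of *TBXAS1* and *PTGS1*, which moved together, and of *ALOX5AP*, the member with the largest increase, are shown as the 250 bases before a RefSeq start site (GRCh38.p14, 5′ to 3′ on the strand of the gene). The RefSeq start of *TBXAS1* lies within the GENCODE span of the gene, and another RefSeq start of *PTGS1* is not shown. Capitals mark matches, on either strand, to GAGGAA (the core bound by PU.1, a macrophage transcription factor), GGGCGG (the GC box) and TATAAA (the TATA box).
*TBXAS1*, chr7:139829014-139829263, plus strand: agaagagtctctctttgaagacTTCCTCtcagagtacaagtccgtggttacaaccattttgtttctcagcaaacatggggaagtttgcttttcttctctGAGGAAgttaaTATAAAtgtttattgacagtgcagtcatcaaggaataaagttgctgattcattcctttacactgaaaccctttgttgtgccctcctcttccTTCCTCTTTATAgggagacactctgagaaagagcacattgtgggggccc
*PTGS1*, chr9:122370283-122370532, plus strand: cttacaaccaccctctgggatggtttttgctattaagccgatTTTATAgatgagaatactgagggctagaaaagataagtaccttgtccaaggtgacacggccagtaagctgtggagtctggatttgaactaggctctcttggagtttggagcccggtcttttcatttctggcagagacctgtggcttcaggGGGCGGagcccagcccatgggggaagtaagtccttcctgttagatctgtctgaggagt
*ALOX5AP*, chr13:30713235-30713484, plus strand: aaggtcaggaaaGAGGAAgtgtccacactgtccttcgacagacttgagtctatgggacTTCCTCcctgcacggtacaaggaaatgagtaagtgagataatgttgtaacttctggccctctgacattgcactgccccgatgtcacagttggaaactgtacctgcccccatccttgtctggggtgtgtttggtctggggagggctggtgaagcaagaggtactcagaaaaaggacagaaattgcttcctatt
GAGGAA was found 3 times in the *TBXAS1* window and 2 times in that of *ALOX5AP*, and not in that of *PTGS1*, which holds GGGCGG from -58 to -53 relative to the start. Of 9 members with a promoter in the RefSeq table, 3 held GAGGAA (*ALOX5AP*, *LTC4S* and *TBXAS1*), compared to 23.6% of all 35116 promoter windows, and 4 held GGGCGG (*LTC4S*, *PTGER2*, *PTGER4* and *PTGS1*), compared to 42.6%. TATAAA was present in 3 (*PTGS1*, *PTGS2* and *TBXAS1*; 10.7% of all windows) and the C/EBP motif TTGCNNAA in 1 (*PTGS2*; 9.05%). A core motif of CTCF, searched as 12 letters of which some could be any base, was found in 0 members and in 2.02% of all windows. The capitals of neighbouring motifs do not overlap, although the third GAGGAA and the second TATAAA match of *TBXAS1* adjoin. These matches are descriptions of the letters, not of binding.

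*TBXAS1* lies near *KDM7A*, a histone demethylase gene. Of the 8 tested genes with an annotated position within 500 kb of *TBXAS1*, 2 were called higher after CTCF depletion and 0 lower. Among all tested genes, 5.41% were called higher and 7.03% lower. *SLC37A3*, a sugar phosphate exchanger gene 273 kb beyond the 3′ end of *TBXAS1*, rose with a log2 fold change of 1.06 (SE 0.07, adjusted p = 4.03e-18 from edgeR). The authors had already reported this rise, together with increased interactions between the *KDM7A* locus and regulatory elements of *SLC37A3*. The region was thus known for it, and the 2 calls cannot be read against the background. *DENND2A*, at 498 kb on the same side, had 4 and 1 counts with CTCF and 31 and 44 after depletion, 15.3 times the control level with an exact 95% counting interval from 6.28 to 48.6 (log2 fold change 3.87, adjusted p = 1.11e-08 from edgeR). At 0 h, *DENND2A* had 25 and 34 counts. *MKRN1*, 433 kb away and between these genes, had a log2 fold change of 0.21 (adjusted p = 0.00444 from edgeR), which was not called. The genes closest to *TBXAS1* showed no such increase: *HIPK2*, which overlaps its annotated start on the other strand, had a log2 fold change of 0.11 (adjusted p = 0.0398 from edgeR), *PARP12*, 3.42 kb away, of -0.02 (adjusted p = 0.86), and *KDM7A*, 64.4 kb away, of -0.20 (adjusted p = 1.82e-04). *UBN2* and *LUC7L2*, on the opposite side, had log2 fold changes of -0.32 and -0.19.

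**Figure D2:**
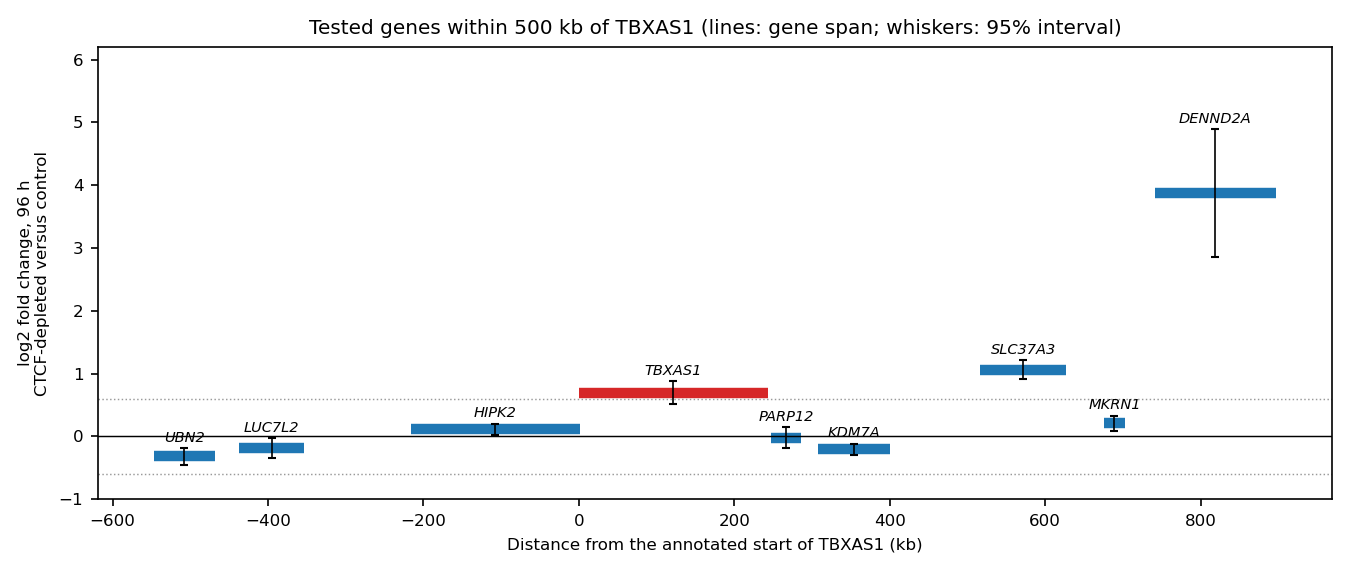
Log2 fold change (CTCF-depleted relative to control at 96 h, edgeR) against distance from the annotated start of *TBXAS1* in kb. Shown are *TBXAS1* (red) and the 8 tested genes with an annotated position within 500 kb (blue). Horizontal lines span each gene and whiskers are 1.96 SE. *TBXAS1*, *SLC37A3* and *DENND2A* lie above the dotted line at 0.6, and *PARP12* and *KDM7A*, between *TBXAS1* and *SLC37A3*, lie at or below 0.

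The receptors of prostaglandin E2 behaved differently from each other. *PTGER2* (chromosome 14, 52314305 to 52328598, plus strand), which encodes the EP2 receptor that raises cAMP, had 517 and 609 counts at 0 h, 258 and 284 in control and 388 and 394 in CTCF-depleted libraries. CTCF-depleted libraries lay between the other groups, with no overlap. The scaled levels were 49.5 ± 5.41, 24.5 ± 2.50 and 36.1 ± 0.26 CPM in the same order of groups (SD, n = 2 each). *PTGER2* fell with CTCF by 1.00 on the log2 scale (SE 0.09, adjusted p = 4.42e-15 from edgeR). CTCF-depleted cells were above control cells by 0.56 on the log2 scale (SE 0.09, adjusted p = 2.13e-06 from edgeR), just short of the fold change threshold, which was passed without the first CTCF-depleted library (0.61) or without the second control library (0.70).

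*PTGER4* (chromosome 5, 40679915 to 40693735, plus strand) encodes EP4, which also couples to cAMP. It had 560 and 869 counts at 0 h, 1703 and 1751 in control and 2097 and 1936 in CTCF-depleted libraries, and after scaling the groups were in the same order without overlap. It rose from 61.5 ± 5.24 to 156 ± 8.38 CPM with CTCF (SD, n = 2 each; log2 fold change 1.34, SE 0.06, adjusted p = 1.61e-26 from edgeR). It measured 186 ± 11.2 CPM without CTCF, a log2 fold change of 0.25 relative to control (SE 0.06, adjusted p = 3.11e-04 from edgeR), below the fold change threshold. The counts of *PTGER4* per count of *PTGER2* changed from 1.08 and 1.43 at 0 h to 6.60 and 6.17 in control and 5.40 and 4.91 in CTCF-depleted libraries.

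*PLA2G4A* (chromosome 1, 186828949 to 186988981, plus strand), the cytosolic phospholipase A2 that releases arachidonic acid, was barely detected, with 0 and 2 counts at 0 h, 6 and 1 in control and 16 and 12 in CTCF-depleted libraries. It passed the filter on low counts only through the CTCF-depleted group. Between 0 h and control the libraries overlapped (adjusted p = 0.155 from edgeR), and both CTCF-depleted libraries were higher than all others. Relative to control, its level was 4.09 times as high by summed counts, with an exact 95% counting interval from 1.74 to 11.1 (log2 fold change 1.99, SE 0.64). The log2 fold change was 1.30 without the second control library, which had 1 count, and 3.68 without the first. No test is given for this comparison, since the gene entered it through the group in which it was high. Past both thresholds in the fit of all 6 libraries, it was no longer so with the replicate number as a block, without a filter on low counts, or without any 1 of the libraries, and DESeq2 gave no adjusted p. *PLA2G4A* and the undetected *PTGS2* are 148 kb apart on chromosome 1.

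Compared per kilobase of annotated exon, *ALOX5AP* had the highest level at 96 h, with 244 ± 4.74 CPM per kb in control and 304 ± 14.5 CPM per kb in CTCF-depleted cells (SD, n = 2 each). It was followed in control cells by *LTA4H* (65.2 CPM per kb), *PTGER4* (44.1), *ALOX5* (32.9), *PTGER2* (9.95), *PTGS1*, *TBXAS1*, *LTC4S* (2.21), *PLA2G4A* (0.108) and *PTGS2*. The library ranges of neighbours in this order did not overlap, except those of *PTGS1* and *TBXAS1*. *PLA2G4A*, with 6 and 1 counts, cannot be told apart from *PTGS2*, whose 0 counts allow up to 3 per library. In CTCF-depleted cells, *PTGER4* (52.6 CPM per kb) and *LTA4H* (49.5) were not distinguishable, and the order was otherwise the same apart from the pair of *PTGS1* and *TBXAS1*. At 0 h the receptors led, with 20.1 CPM per kb for *PTGER2* and 17.3 for *PTGER4*, and *ALOX5AP* stood at 1.84 CPM per kb. The genes with patterns most like *ALOX5* over the 6 libraries were *MSR1*, *CLEC4D* and *RAB3D*, and those most like *TBXAS1* were *PGPEP1*, *SLC38A10* and *ATG16L2*, each with Pearson's r above 0.999 for log2 CPM. With 3 conditions such likeness is common: 2960 and 2833 of 14757 genes had an r above 0.95 with *ALOX5* and *TBXAS1*, respectively.

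The remainder of the pathway was followed in a list of 70 other genes of arachidonic acid release and recycling, eicosanoid synthesis, breakdown, transport and reception, of which 43 could be tested. With CTCF, 20 of the 43 rose and 6 fell during conversion, beside the 25.4% and 22.9% of all tested genes. Of the 43, 14 did not reach the count filter in the 0 h libraries, and 12 of these were among the 20, so that the 20 cannot be read against that background. *COTL1*, which encodes a partner protein of 5-lipoxygenase, went from 37.9 ± 7.24 to 628 ± 10.9 CPM, and *LTB4R*, the receptor of leukotriene B4, from 18.8 ± 0.65 to 59.5 ± 1.62 CPM (SD, n = 2 each). *PTGES*, the inducible prostaglandin E synthase, had 0 counts at 0 h and was at least 60.9-fold higher in control cells, computed against 3 counts per library at 0 h. *ANXA1*, which encodes the phospholipase inhibitor annexin A1, was at least 1392-fold higher on the same basis. *ACSL1* and *ACSL4*, which activate fatty acids for return to membranes, increased with log2 fold changes of 4.94 and 1.36 (adjusted p = 2.06e-54 and 1.28e-29 from edgeR). Those that fell included *ELOVL5*, a fatty acid elongase (log2 fold change -0.86, adjusted p = 2.40e-19 from edgeR), and *ABCC4*, a prostaglandin exporter (-0.75, adjusted p = 1.75e-13).

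After CTCF depletion, 3 of these 43 genes were called higher and 3 lower than in control cells, beside the 5.41% and 7.03% of all tested genes, and 37 were not called. The count filter was passed by 4 of the 43, *CYSLTR2* included, only with the CTCF-depleted libraries. The 3 higher can therefore not be read against that background. Among the 3 higher were both receptors of the cysteinyl leukotrienes. *CYSLTR1* had 13 and 14 counts at 0 h, 10 and 16 in control and 141 and 143 in CTCF-depleted libraries, a log2 fold change of 3.47 relative to control (SE 0.26, adjusted p = 5.98e-17 from edgeR), or 11.1-fold. *CYSLTR2* had 1 and 3, 3 and 5, and 43 and 46 counts, a ratio to control of 11.4 with an exact 95% counting interval from 5.53 to 27.1 (log2 fold change 3.47, SE 0.46). *CYSLTR2* passed the count filter only through the CTCF-depleted libraries, so that no test is given for it. Neither had passed the thresholds between 0 h and control, and in both genes the CTCF-depleted libraries lay above all 4 others. *LTC4S*, whose product forms the ligands of these receptors, is described above and was not called.

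The prostacyclin genes were both lower. *PTGIS*, which encodes prostacyclin synthase, had 0 and 2 counts at 0 h, 214 and 172 in control and 45 and 37 in CTCF-depleted libraries, and fell by 2.20 on the log2 scale relative to control (SE 0.19, adjusted p = 2.44e-14 from edgeR). *PTGIR*, the prostacyclin receptor, had 15 and 15, 187 and 196, and 113 and 102 counts, and fell by 0.80 on the log2 scale (SE 0.15, adjusted p = 2.04e-05 from edgeR). *TBXA2R*, the thromboxane receptor, stayed rare, at 0.81 ± 0.10 CPM with CTCF and 1.57 ± 0.39 CPM without (SD, n = 2 each), and was not called. *TBXAS1* and *PTGIS*, which encode enzymes that both use prostaglandin H2, thus differed in direction, but the rise of *TBXAS1* was known when the list was drawn. *PTGES*, of the same step, was not called (log2 fold change -0.26, adjusted p = 0.218 from edgeR).

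In the supply of arachidonic acid, *FADS1*, the desaturase that makes it, decreased from 187 ± 8.61 to 82.1 ± 1.99 CPM after CTCF depletion (log2 fold change -1.19, SE 0.06, adjusted p = 3.33e-25 from edgeR). *LPCAT3*, which returns it to phospholipids, increased from 53.4 ± 3.29 to 81.5 ± 4.87 CPM (log2 fold change 0.61, SE 0.08, adjusted p = 2.01e-09 from edgeR; SD, n = 2 each). The change of *LPCAT3* lay at the threshold and dropped to 0.59 without the first CTCF-depleted library and to 0.58 without the first control library. *FADS2* and *ABCC1*, a leukotriene C4 exporter, had log2 fold changes of -0.50 and 0.49 that were below the threshold.

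**Figure D3:**
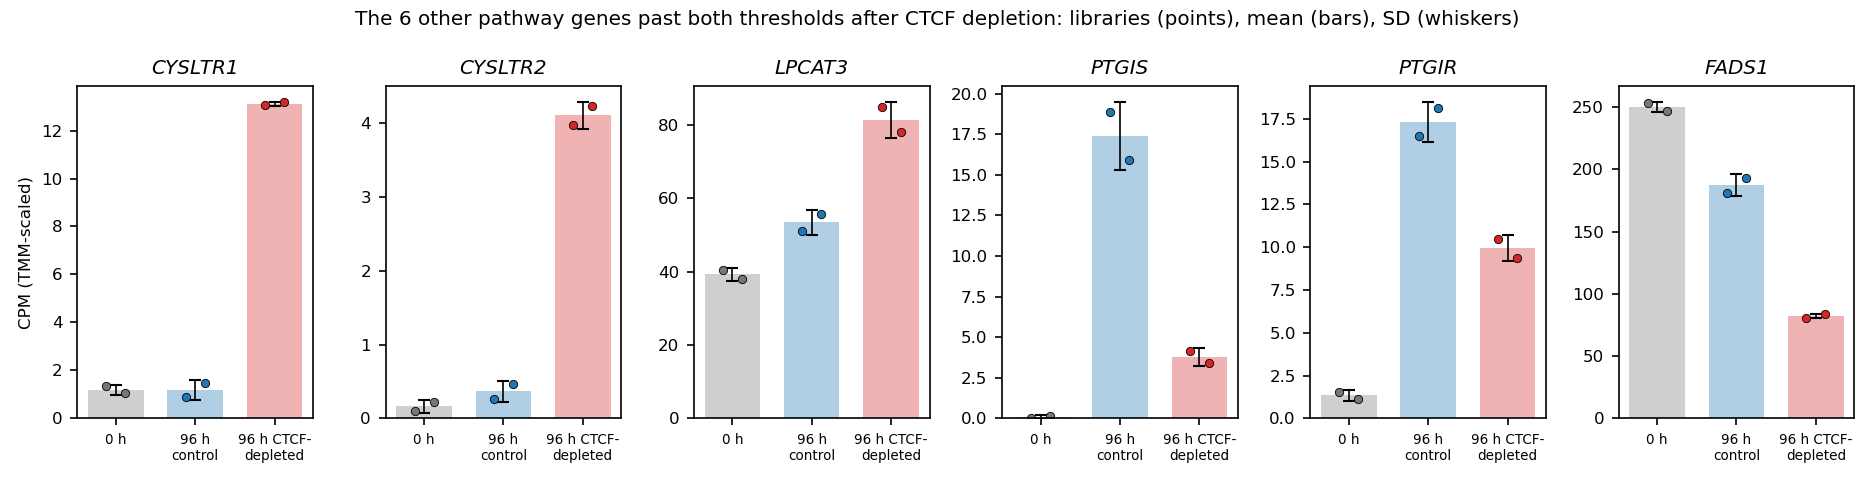
Level in CPM (TMM-scaled; linear axes from 0) of the 6 other pathway genes past both thresholds between CTCF-depleted and control cells at 96 h; points are libraries, bars group means and whiskers SD (n = 2 each). *CYSLTR1* and *CYSLTR2* are highest in the 2 CTCF-depleted libraries, whereas *PTGIS* and *PTGIR* are highest in the control libraries.

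Neighbours could be sought only among tested genes whose symbol matched an annotated position, 12607 of 14758 (85.4%). A nearer tested gene without a position may therefore be missing. The nearest of the placed genes changed in the same direction as the other members in some cases and not in others. *ZFAND4*, the nearest placed gene downstream of *ALOX5* at 169 kb, rose with a log2 fold change of 1.76 after CTCF depletion (adjusted p = 6.90e-18 from edgeR), while *ALOX5* was lower. *OR13A1*, 58.6 kb from *ALOX5* on the other side, had a log2 fold change of -0.37 (adjusted p = 0.22 from edgeR). *USPL1* and *LINC00398*, on either side of *ALOX5AP*, had log2 fold changes of 0.42 and 0.75 (adjusted p = 1.96e-05 and 0.157 from edgeR), of the same sign as *ALOX5AP*. *ELK3*, 151 kb from *LTA4H*, rose by 0.71 on the log2 scale (adjusted p = 2.86e-12 from edgeR), and *HAL*, 4.39 kb from *LTA4H* on the other side, had a log2 fold change of 0.13 (adjusted p = 0.166). *NID2* and *TXNDC16*, on either side of *PTGER2*, had log2 fold changes of 1.04 and 0.55 (adjusted p = 8.09e-10 and 2.89e-04 from edgeR), of the same sign as *PTGER2*. *MRRF* and *PDCL*, on either side of *PTGS1*, had log2 fold changes of -0.14 and -0.01, with adjusted p of 0.199 and 0.94 from edgeR. *TTC33* and *PRKAA1*, the neighbours of *PTGER4*, had log2 fold changes of -0.02 and -0.12 (adjusted p = 0.927 and 0.183 from edgeR). The neighbours of *LTC4S*, *PTGS2* and *PLA2G4A* are not listed here.

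Several of these enzymes are also made by platelets, mast cells, eosinophils and neutrophils, and lists of their markers were measured beside them. Of 7 megakaryocyte and platelet markers, 2 rose with conversion and 1 fell. Their summed level was 3.15 to 5.05 CPM at 0 h, 26.2 to 28.0 CPM in control and 28.3 to 30.7 CPM in CTCF-depleted libraries. At 96 h it came mostly from *PPBP*, which was at 0 CPM at 0 h. *PF4* and *GP1BA* had at most 1 count in any library. Of 9 mast cell and eosinophil markers, 1 rose and 2 fell, with a summed level of at most 6.15 CPM in any library, and *MS4A2* had 0 counts. Of 8 neutrophil markers, 5 rose, with a summed level of at most 0.98 CPM at 0 h, 94.5 to 97.1 CPM in control and 73.1 to 79.4 CPM in CTCF-depleted libraries, mostly from *CSF3R*, and *FCGR3B* had 0 counts. After CTCF depletion, 0 markers of these 3 lists were called higher than in control cells and 1 neutrophil marker was called lower. In the same comparison, 1 of the 12 macrophage markers was called higher (*ITGAM*) and 3 lower, and 2 of the 12 B cell markers were called higher and 3 lower. The part of any of these lists in the levels of the 10 genes was not tested.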

How the data were processed

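RNA-seq was performed on total RNA after removal of ribosomal RNA, with a stranded kit, in 6 libraries of 1 cell line. According to the methods and the submitters' processing notes, the authors aligned reads to hg38 with STAR 2.6.1d and counted them over protein-coding exons with featureCounts 2.0.6. The deposited counts also include noncoding genes, such as *LINC00398*, and so are not limited to protein-coding genes. The deposited values are raw counts per gene symbol, without normalization; the annotation release and strand setting are not given in the sources used here. Reads of overlapping genes can therefore be misassigned. The groups were taken from the sample titles.

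For testing, edgeR 4.0.16 (R 4.3.3) was run on these counts after filterByExpr and TMM scaling, as 1 quasi-likelihood fit of all 6 libraries on condition alone (common biological coefficient of variation 3.96%, prior degrees of freedom 51.7). P-values were adjusted by Benjamini-Hochberg over the 14758 genes tested, and the thresholds were those of the methods. SE is the log2 fold change divided by the square root of F. Replicates of each group differed by more than sampling noise (chi-square per degree of freedom 2.69, 1.90 and 1.71). With 2 libraries per group, the smallest two-sided p of an exact permutation test is 0.333. The p-values rest on a spread between replicates that is shared largely over all genes (prior degrees of freedom 51.7). They do not measure the spread of each gene's own replicates alone. Counting intervals cover counting error only, since reads carry no molecular identifiers. On simulated counts for CTCF-depleted against control libraries over 14758 genes, edgeR recovered 100 of 100 genes changed by 2 and 98 of 100 changed by 1 on the log2 scale, with 2 false calls. The changed genes were drawn only from the more abundant ones. These recovery rates therefore do not cover genes as rare as *PLA2G4A*, *LTC4S* and *CYSLTR2*. The simulated spread was the one edgeR fitted as a trend over abundance, without scatter of single genes around it. The recovery rates and false calls therefore do not cover genes whose replicates vary more than this trend. Positions and exon lengths were from GENCODE release 44 (hg38), promoters from RefSeq (GRCh38.p14); *ALOX5* had no entry there. A position was found for 12607 of the 14758 tested genes (85.4%), and neighbours and genes near *TBXAS1* were drawn from these alone. Summaries used Python 3.11.15.

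The alternatives were DESeq2 1.42.0, RLE scaling, no filter, at least 10 counts in every library, only the 4 libraries compared, a looser threshold, the replicate number as a block and leaving out each library. The members and lists were chosen with earlier results of these data known. Genes that could be named were the members, pathway genes called in any comparison (values for up to 6 of each role, by smallest adjusted p; not all are named), the nearest tested neighbours, all tested genes within 500 kb of *TBXAS1*, and the 3 genes most like *ALOX5* and *TBXAS1*. Genes named outside this rule (*ABCC1* and single markers) were chosen after their values were seen.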

Additional observations from a re-analysis of the deposited data

How the results depend on the processing

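Of 319 values of the members over the alternatives, 300 kept their direction and their side of the thresholds, 15 lost a call, 2 gained one and 2 changed sign. The lost calls belonged to *LTC4S* and *PLA2G4A*, and the gained ones to *PTGER2*; the cause was not tested. The log2 fold change of *LTC4S* between CTCF-depleted and control cells turned to -0.09 without the second CTCF-depleted library and to -0.16 without the first control library, within a range of -0.16 to 0.31 over the libraries left out. For the other genes, added after seeing the data, 440 of 463 values were the same, 17 lost a call and 6 changed sign, all for *PARP12*: its log2 fold change was 0.0081 without a filter, 0.0089 in the fit of the 4 libraries compared, and -0.0155 to 0.0338 over the libraries left out.

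Counts of calls moved by over 1.5 times under 2 alternatives, an adjusted p below 0.05 without a fold threshold and at least 10 counts in every library. With the first, between CTCF-depleted and control cells 6 members were higher and 2 lower (3 and 0 in the reported fit), 13 and 12 genes of the whole pathway list (6 and 3), and 2375 and 3330 of all genes (798 and 1038). In CTCF-depleted cells against 0 h it gave 1 member (0) and 5658 of all genes (3726) lower, and in control against 0 h 14 pathway genes (7) and 5500 of all genes (3376) lower. With the second, fewer genes were tested, and the pathway genes higher than at 0 h went from 27 to 15 in control and from 28 to 17 in CTCF-depleted cells.

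The replicate numbers share no stated culture or batch, and the correlations of replicate differences were -0.02, 0.01 and -0.03. With the replicate block, 2 members were called higher after CTCF depletion and 785 of all genes higher and 1033 lower. Depth limits *PTGS2*, *PLA2G4A* and *LTC4S*. *PLA2G4A* gave no value with at least 10 counts in every library.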
